A study of Homo sapiens with 20 samples.

Results

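The genes described here are 43 genes of DNA replication and of the passage of the cell from G1 into S phase, measured as mRNA in SUM159PT, a human triple-negative breast cancer cell line. The rule is a list of gene names and uses no measured value, though the list was drawn up with earlier results of these data known. The genes were found by matching the Entrez identifiers of the count table to gene symbols. All 43 were among the 27864 genes of the table, and all 43 passed the filter on low counts, which left 16323 genes for testing. The lowest count of any of them in any library was 70 reads. By role they were 4 genes of origin licensing (ORC1, ORC6, CDC6, CDT1), 6 of the MCM helicase (MCM2 to MCM7) and 6 of helicase activation (MCM10, CDC45, GINS1 to GINS4). There were 8 polymerase and primase genes (POLA1, POLA2, PRIM1, PRIM2, POLD1, POLD3, POLE, POLE2) and 6 of the sliding clamp, its loader and the single-strand binding protein RPA (PCNA, RFC2, RFC4, RFC5, RPA2, RPA3). The rest were 2 genes of Okazaki fragment maturation (FEN1, LIG1), 2 of chromatin assembly (CHAF1A, CHAF1B), 4 of deoxynucleotide synthesis (RRM1, RRM2, TYMS, TK1) and 5 G1/S cyclins and E2F factors (CCNE1, CCNE2, E2F1, E2F2, E2F8).

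The 20 mRNA libraries formed 7 groups, all from SUM159PT. The KOd pool had been edited with a pair of guide RNAs that remove exon 1 of NNMT, the cytosolic enzyme that methylates nicotinamide, and the KOs pool with a single guide at the transcription start site of the same gene. Wild-type (wt) cells were not edited. Tumorspheres (3D, 3 libraries each for KOd, KOs and wt) were collected after a first round of 6 days and a second round of 6 days in ultra-low attachment plates, in DMEM/F12 with B27, 20 ng/ml EGF and 20 ng/ml basic FGF. Adherent cells (2D, 3 libraries each for KOd, KOs and wt) were collected at 80% confluency. Their medium was Ham's F12 containing insulin, 1 µg/ml hydrocortisone and fetal calf serum at 5%. A further 2 libraries came from adherent wt cells that were switched to the tumorsphere medium at 50% confluency and collected at 80%. Each pool is a mixture of several clones, so its libraries are repeats of the same mixture, and the editing and the choice of clones cannot be told apart. The labels do not say that replicates were separate cultures, and p-values therefore measure the spread between these libraries.

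Library totals lay between 26396964 and 43744817 reads. NNMT was at 4.39 to 5.64 CPM (counts scaled to the TMM-adjusted library size) in all 6 KOd libraries, against 79.5 to 129.9 CPM in the 6 wt libraries of 3D and standard 2D culture, a log2 fold change of -4.26 ± 0.20 in 3D and -4.68 ± 0.21 in 2D. In the libraries labelled KOs it was at 76.0 to 130.1 CPM, which overlaps the wt range, so no loss of NNMT mRNA was seen there. The protein and the edited sequence were not examined, so the mRNA cannot decide whether the gene was knocked out. The group is called labelled KOs throughout. The libraries labelled KOs also had the highest totals, at least 37316513 reads against at most 32016875 in the others, and the lowest share of ribosomal RNA reads, at most 1.87% against at least 2.10%. A single library differed clearly from the others of its group in 3 groups: replicate C of KOd 3D, replicate C of wt 3D and replicate A of the adherent cells labelled KOs. Results are given with and without these 3 divergent libraries. In the chi-square of read counts between 2 libraries, averaged over genes, KOd 3D replicates A and B had 9.13. Replicate C of that group had 45.63 and 44.58 with them. Replicate C of adherent wt cells in standard medium also lay apart, less clearly, at 45.41 and 23.55 with A and B, which had 11.01 with each other. It is not among the 3 and was kept in those fits. The line's mesenchymal markers VIM (2540 CPM and above) and CD44 (410.0 CPM and above) were present in all 20 libraries. Of 10 luminal and hormone receptor markers 5 stayed below 1 CPM in all libraries, among them ESR1, PGR, EPCAM and CDH1. The rest of that list was detected: KRT8 at 202 to 1120 CPM, KRT18 at 147 to 476 CPM and ERBB2 at 54.2 to 99.0 CPM. GATA3 was at 1.3 to 14.4 CPM and FOXA1 at 0.941 to 3.05 CPM.

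Replication origins are licensed in G1, when the origin recognition complex, CDC6 and CDT1 load the MCM helicase onto DNA. CDC45 and the GINS complex then activate the helicase, and primase, the replicative polymerases, the PCNA clamp with its loader and RPA carry out synthesis. Many of these genes are transcribed under E2F factors, which are released from pocket proteins when cyclin-dependent kinases act, so that their mRNAs are known as a group that is high in cells entering S phase.

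Because the members are known for E2F sites near their start, the RefSeq promoter windows (GRCh38.p14, 250 bases before to 50 bases after the start) were searched on both strands for the E2F-type letters TTTCCCGC, TTTCGCGC, TTTGCCGC and TTTGGCGC. A window was at hand for 35 of the 43 members. Of these 18 held at least 1 match (51.4%), against 1 of 19 genes of G2 and mitosis (5.26%) and 763 of 18858 windows of all genes in the table (4.05%). In all there were 25 matches, of which 17 had their first base within 60 bases of the start, and matches on opposite strands can overlap where the letters form a palindrome. The CCAAT box (CCAAT) was found in 19 of 35 members (54.3%), in 13 of 19 G2/M genes (68.4%) and in 36.3% of all windows. The CHR element (TTTGAA) was found in 1 of 35 members (2.86%), in 13 of 19 G2/M genes (68.4%) and in 13.1% of all windows. A match is a description of the letters in this window, not a bound site.

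**Figure D1:**
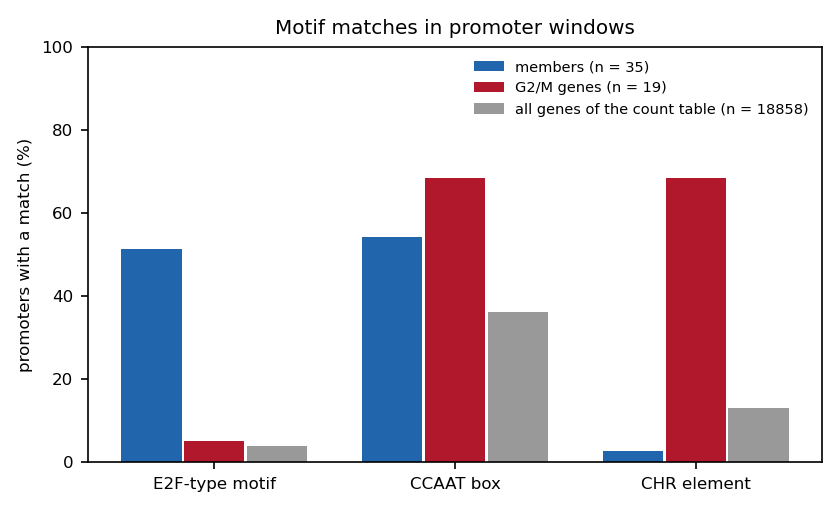
Share of promoter windows, in percent, that hold at least 1 match of each motif, for the 35 members with a window, 19 G2/M genes and all 18858 genes of the table with a window. The members stand out by the E2F-type motif (51.4%) and the G2/M genes by the CHR element (68.4%).

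The windows below are those of a licensing factor, helicase subunits, an E2F factor and a polymerase subunit with matches. FEN1 and CCNE1, whose windows held none of these letters, are shown too. The pattern of FEN1 and CCNE1 across the libraries differed from that of most members. So did that of POLE2 and GINS3, whose windows each held a match. Whether a match goes with the pattern was not tested. Each window shown is written 5′ to 3′ in the direction of transcription, with E2F-type matches in capitals. They lie at chr16:88803539-88803838 (plus strand) for CDT1, chr3:127598161-127598460 (plus) for MCM2, chr2:135876394-135876693 (minus) for MCM6, chr20:33686336-33686635 (minus) for E2F1, chr14:49688165-49688464 (minus) for POLE2, chr11:61792661-61792960 (plus) for FEN1 and chr19:29811741-29812040 (plus) for CCNE1.
CDT1: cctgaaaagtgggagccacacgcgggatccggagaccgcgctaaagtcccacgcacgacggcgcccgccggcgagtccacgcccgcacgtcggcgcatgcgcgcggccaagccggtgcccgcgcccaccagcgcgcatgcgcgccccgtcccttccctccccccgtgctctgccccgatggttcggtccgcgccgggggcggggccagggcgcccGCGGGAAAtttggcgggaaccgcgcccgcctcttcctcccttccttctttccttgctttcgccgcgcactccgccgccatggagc
MCM2: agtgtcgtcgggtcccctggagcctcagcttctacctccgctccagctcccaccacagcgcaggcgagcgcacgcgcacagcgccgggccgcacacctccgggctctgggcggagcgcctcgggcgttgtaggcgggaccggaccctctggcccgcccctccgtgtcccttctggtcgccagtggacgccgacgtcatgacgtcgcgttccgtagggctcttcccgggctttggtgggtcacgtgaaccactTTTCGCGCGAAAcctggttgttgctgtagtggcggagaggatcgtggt
MCM6: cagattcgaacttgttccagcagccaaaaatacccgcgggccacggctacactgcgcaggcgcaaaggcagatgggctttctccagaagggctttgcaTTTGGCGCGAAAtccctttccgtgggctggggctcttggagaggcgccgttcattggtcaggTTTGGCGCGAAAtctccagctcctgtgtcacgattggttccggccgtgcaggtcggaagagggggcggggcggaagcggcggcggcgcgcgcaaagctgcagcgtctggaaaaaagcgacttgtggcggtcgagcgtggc
E2F1: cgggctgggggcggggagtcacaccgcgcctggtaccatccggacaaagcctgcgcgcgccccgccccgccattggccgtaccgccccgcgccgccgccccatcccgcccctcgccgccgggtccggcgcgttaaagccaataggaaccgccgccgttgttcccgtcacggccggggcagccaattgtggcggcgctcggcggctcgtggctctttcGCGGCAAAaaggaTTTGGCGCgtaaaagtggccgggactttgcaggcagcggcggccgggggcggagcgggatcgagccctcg
POLE2: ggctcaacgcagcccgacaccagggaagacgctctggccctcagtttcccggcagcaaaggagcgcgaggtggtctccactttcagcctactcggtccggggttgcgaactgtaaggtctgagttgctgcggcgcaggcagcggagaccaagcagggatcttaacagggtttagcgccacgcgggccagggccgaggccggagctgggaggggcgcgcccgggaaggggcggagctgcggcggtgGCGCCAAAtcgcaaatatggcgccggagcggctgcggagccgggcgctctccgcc
FEN1: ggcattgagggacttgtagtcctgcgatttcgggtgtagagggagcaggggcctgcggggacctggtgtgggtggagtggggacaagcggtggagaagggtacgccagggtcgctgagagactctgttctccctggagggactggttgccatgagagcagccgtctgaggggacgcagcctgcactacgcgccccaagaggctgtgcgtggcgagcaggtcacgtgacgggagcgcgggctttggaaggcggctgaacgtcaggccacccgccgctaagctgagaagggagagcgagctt
CCNE1: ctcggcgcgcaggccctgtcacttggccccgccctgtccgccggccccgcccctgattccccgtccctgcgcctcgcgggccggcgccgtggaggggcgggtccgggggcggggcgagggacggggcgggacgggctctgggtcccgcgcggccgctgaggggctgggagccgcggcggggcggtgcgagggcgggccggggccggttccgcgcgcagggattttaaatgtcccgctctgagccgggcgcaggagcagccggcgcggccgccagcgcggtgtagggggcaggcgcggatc

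All 43 genes of the set were lower in wt tumorspheres than in adherent wt cells. None rose (33.3% of all 16323 genes tested rose and 30.4% fell, 63.7% in all), and the median log2 fold change of the set was -1.55, against 0.04 over all genes tested. Every wt 3D library was below every wt 2D library for all 43 genes, where 33% of all genes tested had such groups. The falls lay between -2.40 and -0.81 on the log2 scale, and 40 genes were at least 2-fold lower. Without the 3 divergent libraries all 43 still fell (70.5% of all genes passed), with a median of -1.38.

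The largest falls were in the supply of DNA building blocks and in an E2F factor. RRM2 (Entrez 6241, chromosome 2, 10122568 to 10211010 in GRCh38.p14) encodes the small subunit of ribonucleotide reductase, which makes deoxynucleotides. It had 108, 120.2 and 55.9 CPM in wt tumorspheres, against 481, 476 and 538 CPM in adherent wt cells, a log2 fold change of -2.40 ± 0.22 (± SE throughout, edgeR quasi-likelihood test, adjusted p = 6.4e-08). E2F2, an activating E2F factor, had 7.49, 8.56 and 4.43 CPM against 32.6, 33.0 and 35.5 CPM in adherent wt cells (-2.30 ± 0.19, adjusted p = 1.3e-08). TK1, the thymidine kinase of the salvage route, had 42.4, 37.7 and 26.8 CPM against 147, 159 and 183 CPM in adherent wt cells (-2.19 ± 0.13, adjusted p = 2.1e-10). In each of them wt 3D replicate C was the lowest library and replicates A and B lay close together, and no tumorsphere library reached the adherent range. Of the same role, TYMS, which makes thymidylate, was at -1.83 ± 0.15 and RRM1, the large reductase subunit, at -1.65 ± 0.12.

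The loading and unwinding machinery fell as a whole in wt tumorspheres. The 4 licensing genes had a median of -1.65, led by CDT1 at -1.84 ± 0.17, which had 17.1, 13.3 and 12.1 CPM in tumorspheres against 40.8, 58.7 and 52.7 CPM in adherent wt cells. The 6 MCM genes, which form the helicase ring, fell between -1.27 (MCM3) and -1.83 (MCM2). MCM2 was at 82.5, 73.0 and 58.3 CPM in wt tumorspheres, against 252, 248 and 259 CPM in adherent wt cells. The tumorsphere libraries all lay below the adherent ones, with no overlap. Among the helicase activators GINS2 (-2.18 ± 0.15), MCM10 (-2.04 ± 0.24) and CDC45 (-1.95 ± 0.23) fell the most and GINS3 the least, at -0.82 ± 0.14.

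The synthesis genes fell too. The 8 polymerase and primase genes had a median of -1.33, between -1.82 for the primase catalytic subunit PRIM1 and -0.81 for the delta subunit POLD3. The clamp PCNA was at -1.49 ± 0.15. The loader subunits RFC2, RFC4 and RFC5 were at -1.49, -1.36 and -1.27, and the RPA subunits RPA3 and RPA2 at -1.42 and -0.92. The flap nuclease FEN1, which trims Okazaki fragments, was at -1.35 ± 0.21 and the ligase LIG1, which joins them, at -1.19 ± 0.12. Of the chromatin assembly factor, which places histones on new DNA, the CHAF1B subunit was at -1.92 ± 0.14, and the median of both subunits was -1.71. Cyclin E1 (CCNE1) and cyclin E2 (CCNE2), partners of CDK2 at the G1/S transition, were at -1.17 ± 0.19 and -1.64 ± 0.21, E2F1 at -1.67 ± 0.20 and the repressor E2F8 at -1.83 ± 0.22. Exons of CCNE2 share 37% of their bases with INTS8 on the opposite strand and those of TYMS 39.1% with ENOSF1. MCM2, GINS3 and GINS4 share 10.9% to 22.7% with a gene on the opposite strand. Since the strand setting of the counting is not given in the sources used here, the counts of all these genes are uncertain to that extent. POLA2, PRIM1 and RRM2 share 14.9% to 35.1% with a gene on the same strand. No strand setting separates reads from such shared bases. All these shares are of exon bases in the GENCODE annotation, and the annotation used for counting is not given. Whether the counting included the overlapping genes is thus unknown, and the counts are uncertain to that extent whatever the setting.

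**Figure D2:**
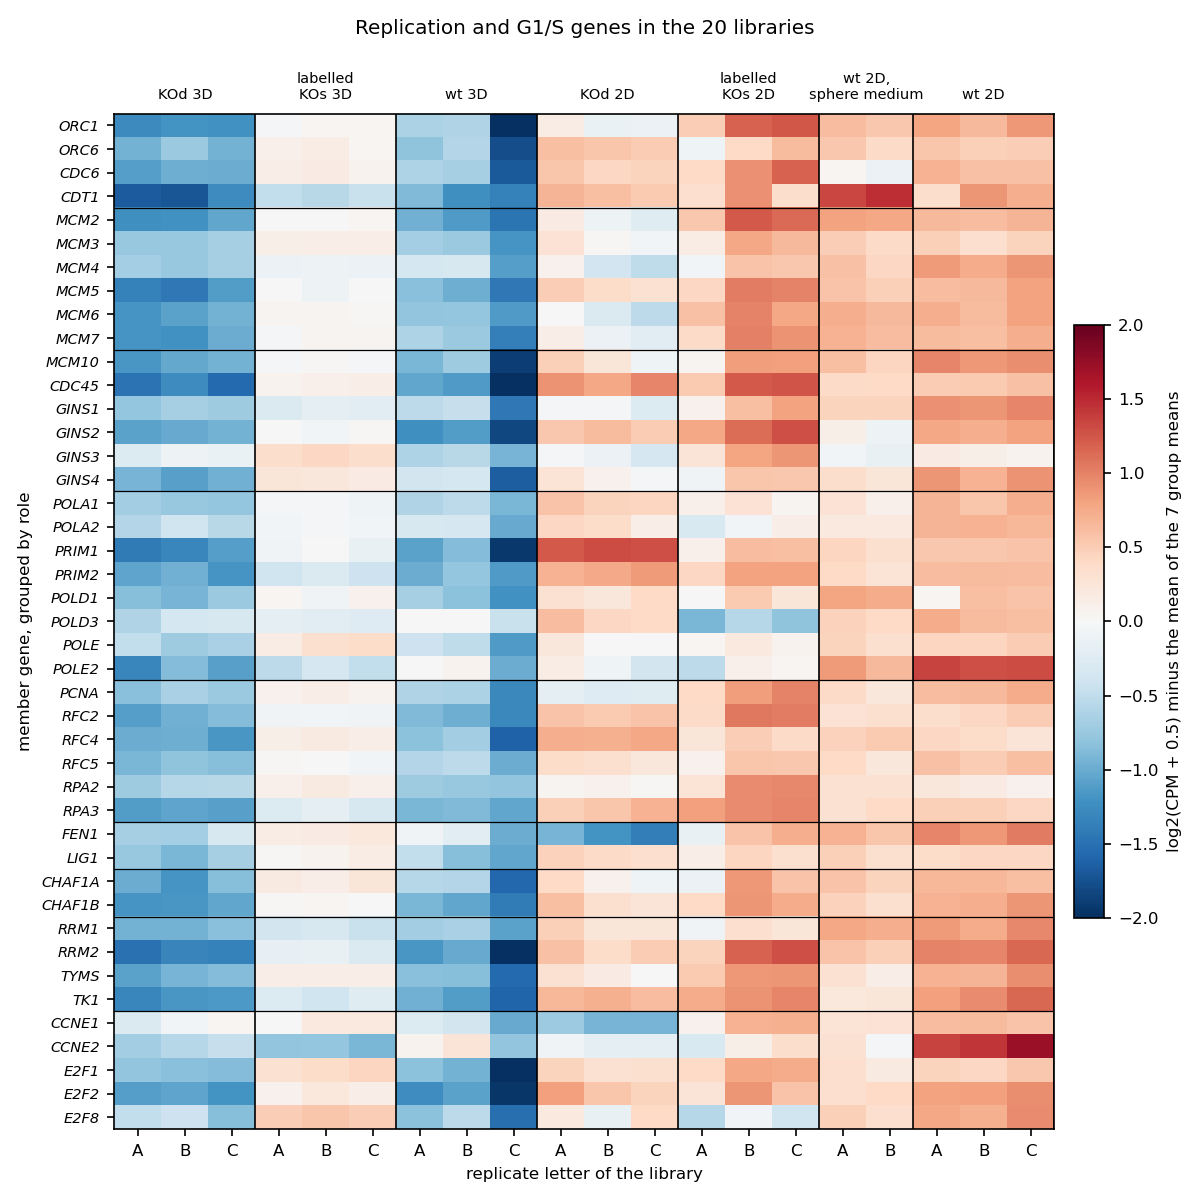
Level of each of the 43 genes in each library, as log2(CPM + 0.5) minus the mean of the 7 group means, with genes in rows by role and the 20 libraries in columns by group. KOd and wt tumorspheres are low nearly throughout, tumorspheres labelled KOs are intermediate, and wt 3D replicate C and labelled KOs 2D replicate A differ from their replicates.

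Markers of other kinds moved in the same comparison, and their part in the result was not tested. The summed level of 5 endothelial markers was 50.7 to 73.3 CPM in wt tumorspheres and 7.56 to 10.8 CPM in adherent wt cells, nearly all of it in tumorspheres from PECAM1, while CDH5 and TEK stayed under 1 CPM. In KOd it was 90.2 to 97.4 CPM in tumorspheres and 7.49 to 8.82 CPM in adherent cells. The sum of 6 mesenchymal and basal markers of the line was 38500 to 41050 CPM in wt tumorspheres and 13610 to 14580 CPM in adherent wt cells. Most of the difference was FN1, at 33590, 33060 and 33970 CPM in wt tumorspheres and 8539, 7584 and 8189 CPM in adherent wt cells. CD44 and EGFR were higher in tumorspheres too, and VIM and ZEB1 overlapped between the groups. CDH2 was lower, at 99.7, 104.3 and 96.8 CPM in wt tumorspheres against 270.8, 252.1 and 270.5 CPM in adherent wt cells. The leukocyte sum was 18.2 to 21.4 CPM in wt tumorspheres and 24.3 to 31.9 CPM in adherent wt cells.

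In bulk RNA, fewer cells in S phase and less of these mRNAs per cell cannot be told apart. Genes of G2 and mitosis, kept as a list outside the set, moved in the same comparison: 24 of 24 fell, with a median of -1.65, among them the anaphase activator CDC20 (-2.37 ± 0.15). Replication genes outside the set fell in 23 of 25 (1 rose, median -0.99), for example RPA1, the large RPA subunit (-1.24 ± 0.07), and WDHD1, which links the helicase and polymerase alpha (-1.67 ± 0.13). Of the fork protection and checkpoint genes 23 of 23 fell (median -1.45), with the PCNA partner PCLAF at -2.09 ± 0.16. Nucleotide supply genes outside the set fell in 13 of 16 and rose in 2 (median -1.10), with the deoxycytidine kinase DCK at -1.44 ± 0.11. Histone supply genes fell in 11 of 12, with H2AZ1 at -1.67 ± 0.15. The upstream regulators were more mixed: 12 of 21 E2F, pocket protein and G1 genes fell and 4 rose, with CDK2 at -1.41 ± 0.09, cyclin A2 (CCNA2) at -2.16 ± 0.19 and RB1 at -0.98 ± 0.08.

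Inhibitors of cyclin-dependent kinases went the other way in part. Of 7 such genes 5 were tested, of which 2 rose and 1 fell in wt tumorspheres against adherent wt cells. CDKN1A, which encodes p21, had 200.9, 187.6 and 275.6 CPM in wt tumorspheres, against 46.0, 49.2 and 56.0 CPM in adherent wt cells (2.13 ± 0.17, adjusted p = 8.7e-09). CDKN1B, which encodes p27, rose by 0.88 ± 0.13 and CDKN2D fell by 0.55 ± 0.18. Within wt tumorspheres replicate C had the highest CDKN1A and the lowest levels of the set, with a median deviation of -1.36 on the log2 scale against -0.71 and -0.70 in replicates B and A. Within KOd tumorspheres replicate C also had the highest CDKN1A, at 438.5 CPM, but the highest levels of the set, at -0.914 against -0.952 and -0.9996 in replicates B and A.

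For the tumorsphere medium on its own in adherent wt cells, the number of members past the test depended on the fit. In the fit of all 7 groups 1 of the 43 genes rose and 7 fell (15.6% and 16.4% of all genes tested, 32% in all), with a median of -0.23 against 0 over all genes. Every library in tumorsphere medium was below every library in standard medium for 31 members (32.4% of all genes) and above for 5 (33.9% of all genes). CCNE2 fell the most, with 14.9 and 11.8 CPM in the 2 libraries in tumorsphere medium against 31.4, 33.2 and 40.6 CPM in standard medium (-1.40 ± 0.24, adjusted p = 3.1e-04). GINS2 (-0.77 ± 0.16, adjusted p = 0.0017), TK1 (-0.75 ± 0.14, adjusted p = 6.0e-04), CDC6 (-0.66), TYMS (-0.55), POLA2 (-0.49) and POLA1 (-0.46) passed too, but the calls of CDC6 and POLA2 were lost under each of the 5 omissions of 1 library (adjusted p up to 0.20 and 0.12) and that of TYMS under 3 of them. CDT1, the licensing factor, was the gene that rose, with 80.9 and 89.4 CPM in tumorsphere medium against 40.8, 58.7 and 52.7 CPM in standard medium (0.75 ± 0.18, adjusted p = 0.0044). All 6 MCM genes, which act with it, stayed between -0.32 and 0.14 and did not pass. Fitted with the compared groups alone 26 members passed, or 60.5% of the set against 54.2% of all genes. Without the 3 divergent libraries, none of them in these groups, 27 passed, with 2 higher and 25 lower (62.8% of the set, 49.3% of all genes). The count was 5 or 6 when a library in standard medium was left out (25.2% to 27.7% of all genes). Leaving out tumorsphere medium replicate B left 1 library in that group, with CDT1 at 0.66. The rise of CDT1 thus rests on 2 libraries in that medium, and 1 library alone cannot decide whether it holds. The cause of these shifts was not tested.

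Set against the same adherent cells in tumorsphere medium, wt tumorspheres had 42 of 43 members lower and none higher (30% and 32.8% of all genes, 62.8% in all), with a median of -1.36. CDT1 fell to 17.1, 13.3 and 12.1 CPM in wt tumorspheres, against 80.9 and 89.4 CPM in adherent cells in that medium (-2.59 ± 0.19, adjusted p = 3.2e-09). MCM2 (-1.97 ± 0.16, adjusted p = 1.9e-08) and RRM2 (-1.88 ± 0.24, adjusted p = 2.4e-06) followed. CCNE2 was the exception, with 12.6, 14.4 and 6.73 CPM in wt tumorspheres and -0.24 ± 0.24, which did not pass. The comparison of the medium and this comparison use the same libraries in tumorsphere medium.

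The KOd pool followed the wt pattern for most of the set, with 39 of 43 genes lower in KOd tumorspheres than in adherent KOd cells and 2 higher (31.2% and 35.2% of all genes, 66.4% in all). The median was -1.18 against 0.07 over all genes, and in 40 genes every 3D library was below every 2D library (35.1% of all genes). PRIM1 fell the most, with 8.74, 9.43 and 10.9 CPM in KOd tumorspheres against 56.9, 59.95 and 59.3 CPM in adherent KOd cells (-2.60 ± 0.20, adjusted p = 3.7e-09). The helicase activator CDC45 was at -2.34 ± 0.23 (adjusted p = 1.2e-07) and CDT1 at -2.18 ± 0.18 (adjusted p = 8.1e-09). The members that led in wt fell here as well, RRM2 at -1.88 ± 0.22, TK1 at -1.88 ± 0.13 and E2F2 at -1.79 ± 0.19.

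Cyclin E1 and FEN1 were the 2 members that rose in KOd tumorspheres. CCNE1 had 8.80, 10.5 and 11.2 CPM in KOd tumorspheres against 6.35, 5.48 and 5.45 CPM in adherent KOd cells (0.82 ± 0.19, adjusted p = 0.0010), with no overlap between the groups. FEN1 had 51.0, 50.3 and 65.0 CPM in KOd tumorspheres against 42.6, 35.2 and 30.9 CPM in adherent KOd cells (0.61 ± 0.21, adjusted p = 0.017), again without overlap. The FEN1 call was lost without KOd 3D replicate C (0.48, adjusted p = 0.079) and without KOd 2D replicate C (0.51, adjusted p = 0.077). GINS3 (-0.01 ± 0.14) and CCNE2 (-0.45 ± 0.22) did not pass. Both risers had windows without the E2F-type letters printed above, as did 15 others of the 35 members with a window.

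In the libraries labelled KOs the fall was smaller and less general. Of the 43 genes 27 were lower in tumorspheres than in adherent cells, 2 were higher and 14 did not pass (32.1% and 32.9% of all genes fell and rose, 65% in all), with a median of -0.55 against 0.02. Without the 3 divergent libraries, of which labelled KOs 2D replicate A belongs here, 39 fell and 2 rose (75.8% of all genes passed there), with a median of -0.68. Without labelled KOs 2D replicate A alone 35 fell and 2 rose (71.0% of all genes passed). RRM2 had 217, 219.5 and 199 CPM in tumorspheres labelled KOs against 330.5, 547 and 594 CPM in adherent cells labelled KOs (-1.21 ± 0.22, adjusted p = 9.4e-05). TK1 was at -1.18 ± 0.12 (adjusted p = 3.3e-07) and RPA3 at -1.18 ± 0.07 (adjusted p = 7.1e-10), and 6 genes were at least 2-fold lower. E2F2, with -2.30 in wt, fell by 0.46 ± 0.18 here, a call lost without labelled KOs 2D replicate B (-0.28, adjusted p = 0.19), 3D replicate A (-0.42, adjusted p = 0.083) or 3D replicate C (-0.45, adjusted p = 0.0695).

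By role, all 6 MCM genes and all 4 genes of deoxynucleotide synthesis passed as lower in tumorspheres labelled KOs, in the fit of all libraries. There 2 of 8 polymerase and primase genes, 1 of 2 chromatin assembly genes and neither FEN1 nor LIG1 did. Without the 3 divergent libraries 39 members were lower and 2 higher (95.3% of members, 75.8% of all genes). Most members that did not pass in the fit of all libraries thus passed without them, and a difference between roles was not tested. The MCM4 call was lost under 5 of 6 omissions of 1 library (adjusted p up to 0.11) and the MCM3 call under 2 of 6 (up to 0.0957), so that 4 of the MCM calls held throughout. E2F8, a repressor of E2F targets that is also transcribed under E2F control, rose: it had 11.3, 11.9 and 11.3 CPM in tumorspheres labelled KOs against 5.18, 7.60 and 5.88 CPM in adherent cells labelled KOs (0.89 ± 0.21, adjusted p = 0.0015). POLD3 rose too, with 27.9, 27.8 and 26.9 CPM against 16.9, 21.4 and 18.1 CPM in the adherent cells (0.55 ± 0.12, adjusted p = 6.2e-04). Neither gene overlapped between the 2 cultures. The 3 changes of culture share no library, and 26 of the 43 members fell in all of them, of 39 that fell in KOd, 27 in labelled KOs and 43 in wt. Of all genes tested 31.2% fell in KOd, 32.1% in labelled KOs and 30.4% in wt. The share of all genes that fell in all 3 was not counted and can be no higher than the lowest of these.

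**Figure D3:**
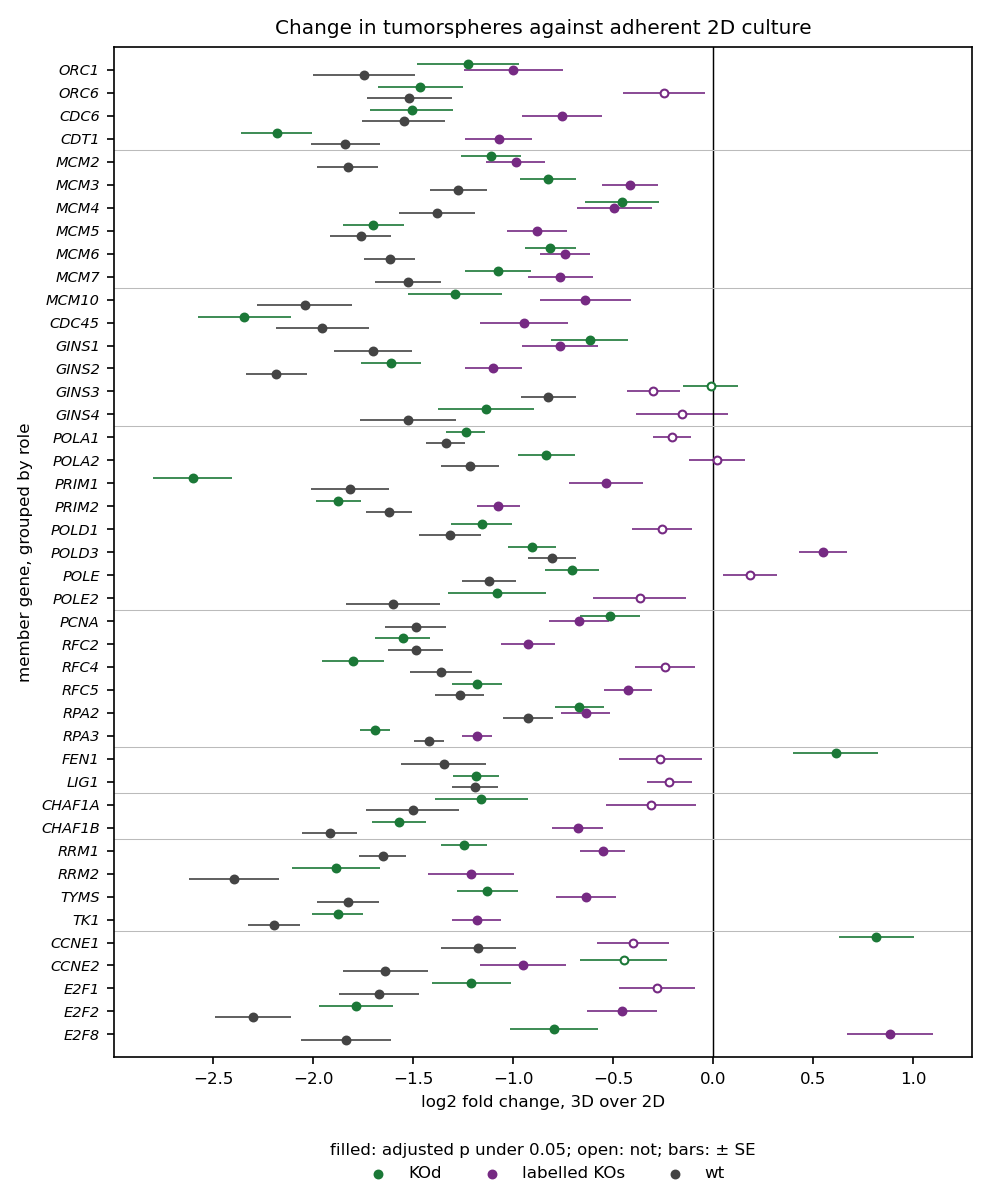
Log2 fold change of tumorspheres over adherent 2D cells for each of the 43 genes in KOd, labelled KOs and wt, with bars of ± SE and filled points for adjusted p under 0.05. The wt points lie farthest left for most genes, CCNE1 and FEN1 lie right of 0 in KOd, and E2F8 and POLD3 lie right of 0 in labelled KOs.

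The difference between the cultures' effects was tested directly, as the change in the pool minus the change in wt. For labelled KOs it was above 0 in all 43 genes and passed in 39, none of them below 0 (17.9% of all genes passed above 0 and 19% below, 36.8% in all), with a median of 1.01 against -0.03. E2F8 had the largest difference (2.72 ± 0.31, adjusted p = 5.0e-06), then E2F2 (1.84 ± 0.26, adjusted p = 3.7e-05) and MCM10 (1.40 ± 0.32, adjusted p = 0.0027). Without the 3 divergent libraries 38 passed (46.1% of all genes), the median was 0.71 and MCM10 was at 0.91. All 6 MCM genes passed within a narrow span, between 0.76 and 0.89, whereas ORC1 (0.75), CCNE2 (0.69), RPA2 (0.29) and RPA3 (0.24) did not pass. For KOd 12 passed above 0 and 1 below (14.4% and 14.7% of all genes, 29.1% in all), with a median of 0.40 against 0.01. The 3 largest were CCNE1 (1.99 ± 0.26, adjusted p = 2.9e-05), FEN1 (1.96 ± 0.30, adjusted p = 1.1e-04) and CCNE2 (1.19 ± 0.30, adjusted p = 0.0064). PRIM1 was the gene below 0 (-0.79 ± 0.27, adjusted p = 0.034), a call lost under 9 of 12 omissions of a single library, with adjusted p up to 0.11. Both tests use the same wt libraries.

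Among tumorspheres, those labelled KOs stood above wt in almost the whole set. There 39 of 43 genes were higher and 1 lower (27.8% and 28.5% of all genes, 56.3% in all), with a median of 0.94 against 0.02, and in 40 genes every library labelled KOs was above every wt library (34.9% of all genes). E2F1, an activating E2F factor, had 38.7, 40.4 and 42.0 CPM in tumorspheres labelled KOs against 17.3, 15.9 and 7.32 CPM in wt tumorspheres (1.57 ± 0.20, adjusted p = 2.7e-06). E2F2 had 19.6, 21.5 and 20.3 CPM against 7.49, 8.56 and 4.43 CPM in wt (1.58 ± 0.19, adjusted p = 1.2e-06), and E2F8 had 11.3, 11.9 and 11.3 CPM against 4.23, 5.34 and 2.44 CPM in wt (1.52 ± 0.22, adjusted p = 1.5e-05). The libraries labelled KOs lay close together and all above wt in these 3 genes. CCNE2 was the gene that fell, with 6.74, 6.76 and 6.12 CPM in tumorspheres labelled KOs against 12.6, 14.4 and 6.73 CPM in wt tumorspheres (-0.78 ± 0.22, adjusted p = 0.0049), where wt replicate C overlapped the lower group. MCM4 (0.44), POLD3 (-0.09) and POLE2 (-0.23) did not pass. Without the 3 divergent libraries 39 rose and 3 fell (64.9% of all genes passed), with a median of 0.77.

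By role, all 6 clamp, loader and RPA genes rose (median 0.90), all 6 helicase activators (1.09), all 4 licensing genes (1.01), all 4 deoxynucleotide genes (1.04), 5 of 6 MCM genes (0.96), and 6 of 8 polymerase and primase genes (0.62). The calls of GINS1 and FEN1 were lost under 3 and 4 of 6 omissions of 1 library, without wt 3D replicate C among them (0.26, adjusted p = 0.15, and 0.30, adjusted p = 0.20). Outside the set 18 of 24 G2/M genes rose and 1 fell (median 0.64), with the kinase AURKB at 2.06 ± 0.21, and 16 of 25 other replication genes rose and 2 fell (median 0.46). Of the fork and checkpoint genes 15 of 23 rose and 1 fell, with the fork protection gene TIMELESS at 1.08 ± 0.14. CDKN1A was lower, with 111.4, 112.4 and 112.9 CPM in tumorspheres labelled KOs against 200.9, 187.6 and 275.6 CPM in wt tumorspheres (-0.98 ± 0.16, adjusted p = 6.3e-05), and CDKN1B fell by 1.15 ± 0.13. The E2F partner TFDP1 fell as well (-1.55 ± 0.13) while cyclin D3 (CCND3) rose by 0.80 ± 0.09, among 21 such regulators of which 8 rose and 6 fell.

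Other measures also set these libraries apart, and their part in the result was not tested. Ribosomal RNA took 0.681% to 0.969% of reads in tumorspheres labelled KOs and 4.24% to 6.83% in wt tumorspheres. The summed level of 8 leukocyte markers was 188.9 to 200.8 CPM in tumorspheres labelled KOs and 18.2 to 21.4 CPM in wt tumorspheres, of which CD68, a lysosomal protein also made outside leukocytes, gave 183.2 to 193.7 CPM and 15.7 to 17.8 CPM. Of the other members, CD14 had 4.41 to 5.32 CPM in tumorspheres labelled KOs and 0.129 to 0.349 CPM in wt tumorspheres, and ITGAM 1.08 to 1.18 CPM and 0.202 to 0.836 CPM. The general leukocyte marker PTPRC was lower, at 0.1001 to 0.392 CPM in tumorspheres labelled KOs and 1.74 to 2.23 CPM in wt tumorspheres. Of the 8 genes 4 were under 1 CPM in all libraries, with MS4A1 at 0, CD3E at most 0.0611 CPM and LYZ at most 0.196 CPM. The summed level of 5 endothelial markers was 31.2 to 36.2 CPM in tumorspheres labelled KOs and 50.7 to 73.3 CPM in wt tumorspheres, with CDH5 at most 0.105 CPM.

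In KOd tumorspheres few members passed the test against wt tumorspheres. Of 43 genes 1 was higher and 1 lower (16.5% and 17.5% of all genes, 34% in all), with a median of -0.04. GINS3, a subunit of the GINS complex, had 20.1, 22.6 and 22.0 CPM in KOd tumorspheres against 15.8, 16.4 and 12.5 CPM in wt tumorspheres (0.54 ± 0.14, adjusted p = 0.0057). POLE2, an accessory subunit of polymerase epsilon, had 3.33, 4.73 and 3.96 CPM in KOd tumorspheres against 9.04, 9.47 and 4.29 CPM in wt tumorspheres (-0.93 ± 0.24, adjusted p = 0.0067). In GINS3 the groups did not overlap, and in POLE2 wt replicate C lay within the KOd range. The count moved with the libraries used, and so did the share of all genes: without wt 3D replicate C 1 rose and 9 fell (33.1% of all genes passed), without wt 3D replicate A 3 rose and 1 fell (29.3%), and without all 3 divergent libraries 1 rose and 19 fell, with a median of -0.20. In that last fit 46.5% of the members passed, near the 45.3% of all genes. Scaled by library totals alone 3 rose and 1 fell (36.7% of all genes passed). Fitted with these 2 groups alone only GINS3 passed (30.2% of all genes), POLE2 being at -0.91 (adjusted p = 0.058).

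Among the G2/M genes, 14 of 24 were lower in KOd tumorspheres and 1 higher (median -0.52), and without the 3 divergent libraries 22 were lower; whether the set and these genes differ was not tested. CDKN1A had 303.6, 314.1 and 438.5 CPM in KOd tumorspheres against 200.9, 187.6 and 275.6 CPM in wt tumorspheres (0.67 ± 0.16, adjusted p = 0.0038), and TFDP1 fell by 1.03 ± 0.13. In the other lists 6 of 21 E2F, pocket protein and G1 genes rose and 2 fell, 2 of 25 other replication genes rose and 3 fell, and 5 of 23 fork and checkpoint genes fell and none rose.

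In adherent KOd cells the set was partly lower than in adherent wt cells. There 21 of 43 genes were lower and 2 higher (22.5% and 22.1% of all genes, 44.6% in all), with a median of -0.33 against 0.01. FEN1 (Entrez 2237, chromosome 11, 61792911 to 61797238) had 42.6, 35.2 and 30.9 CPM in adherent KOd cells against 161, 149 and 168 CPM in adherent wt cells (-2.14 ± 0.22, adjusted p = 5.1e-07). CCNE1 had 6.35, 5.48 and 5.45 CPM against 16.9, 17.2 and 16.4 CPM in wt (-1.55 ± 0.19, adjusted p = 3.7e-06), and CCNE2 had 11.4, 10.5 and 10.3 CPM against 31.4, 33.2 and 40.6 CPM in wt (-1.71 ± 0.21, adjusted p = 5.1e-06). None of these 3 genes overlapped between the groups, and POLE2 likewise was lower, at 10.02, 8.48 and 6.90 CPM against 23.6, 22.6 and 22.99 CPM in wt (-1.45 ± 0.23). Of the MCM genes 4 fell, with MCM2 and MCM7 at -0.70, MCM6 at -0.98 and MCM4 at -1.07, and all 4 deoxynucleotide genes passed as lower, with TYMS at -0.61, RRM2 at -0.55, RRM1 at -0.53 and TK1 at -0.31. The RRM2 call was lost under each of the 6 omissions of 1 library (adjusted p up to 0.13) and the TK1 call under 5 of them (up to 0.21). PCNA fell by 0.90 ± 0.15.

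PRIM1 and RFC4 were the genes that rose in adherent KOd cells. PRIM1 (Entrez 5557, chromosome 12, 56731580 to 56752323) had 56.9, 59.95 and 59.3 CPM in adherent KOd cells against 35.2, 35.1 and 35.7 CPM in adherent wt cells (0.73 ± 0.18, adjusted p = 0.0032), without overlap, and no other group of the series exceeded 37.0 CPM. RFC4 rose by 0.39 ± 0.15 (adjusted p = 0.044), a call lost under each of the 6 omissions of 1 library (adjusted p up to 0.13). The count fell to 15 genes, or 34.9% of the members, without wt 2D replicate C, KOd 2D replicate B or KOd 2D replicate C. There 38%, 38.3% and 38.5% of all genes passed. Scaled by library totals alone 3 rose and 13 fell, or 37.2% of the members against 44.9% of all genes. Without the 3 divergent libraries, none of them in these groups, 4 rose and 29 fell (59.7% of all genes passed). CDKN1A had 82.0, 85.3 and 117.8 CPM in adherent KOd cells against 46.0, 49.2 and 56.0 CPM in adherent wt cells (0.91 ± 0.17, adjusted p = 2.2e-04). Of the G2/M genes 15 of 24 fell (median -0.58), and of the other replication genes 8 of 25 fell and 5 rose, with ORC5 at 0.95 ± 0.15. The mismatch repair gene MSH6, of the fork and checkpoint list, was at -1.09 ± 0.11 (10 of 23 fell, none rose), and the histone variant gene H2AX at -1.64 ± 0.18 (8 of 12 histone supply genes fell, 1 rose).

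In adherent cells labelled KOs, 4 of 43 genes were higher than in adherent wt cells and 9 lower (27.7% and 25.5% of all genes, 53.2% in all), with a median of -0.10 against 0.06. POLD3 had 16.9, 21.4 and 18.1 CPM in adherent cells labelled KOs against 54.1, 50.04 and 49.2 CPM in adherent wt cells (-1.44 ± 0.12, adjusted p = 3.7e-08). CCNE2 had 9.60, 12.9 and 15.4 CPM against 31.4, 33.2 and 40.6 CPM in wt (-1.47 ± 0.21, adjusted p = 1.7e-05), and POLE2 had 6.11, 9.74 and 9.26 CPM against 23.6, 22.6 and 22.99 CPM in wt (-1.46 ± 0.23, adjusted p = 4.8e-05). These 3 genes did not overlap between the groups. The risers were RPA2 (0.60 ± 0.12, adjusted p = 4.6e-04), GINS3 (0.56 ± 0.14, adjusted p = 0.0020), RPA3 (0.45 ± 0.07, adjusted p = 5.7e-05) and RFC2 (0.43 ± 0.13, lost under 2 of 6 omissions of 1 library). The balance of higher and lower genes rested on labelled KOs 2D replicate A, where the set took 0.344% of reads against 0.487% and 0.456% in replicates B and C. Without it 9 rose and 7 fell (56.8% of all genes passed), and without all 3 divergent libraries 15 rose and 12 fell. In that last fit 62.8% of the members passed, near the 63.7% of all genes. Outside the set, 13 of 24 G2/M genes fell and 1 rose, 12 of 25 other replication genes fell and 4 rose, and 13 of 23 fork and checkpoint genes fell and none rose. Among them RPA1 rose by 0.60 ± 0.07, the loader subunit RFC3 was at -1.64 ± 0.19 and the kinetochore motor CENPE at -2.57 ± 0.28. Replicate A also had the KDR transcript of endothelial cells at 29.1 CPM and 42.2 CPM summed over the 5 endothelial markers, against 8.43 and 10.04 CPM in its replicates; their part in the result was not tested.

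Several of these genes were low in both pools in 2D. CCNE2 was at -1.71 in KOd and -1.47 in labelled KOs, POLE2 at -1.45 and -1.46, and RRM1 at -0.53 and -0.67, all against the same wt libraries. RB1, the pocket protein that holds E2F factors, was at 0.10 ± 0.08 in adherent KOd cells, which did not pass, and fell by 1.11 ± 0.08 in adherent cells labelled KOs. The kinase gene CDK6 was at 0.10 ± 0.12 in KOd, which did not pass, and fell by 1.46 ± 0.13 in labelled KOs. CDKN1B rose by 0.60 ± 0.13 in KOd and fell by 0.78 ± 0.13 in labelled KOs. Cyclin D1 (CCND1) was at -1.11 ± 0.11 in KOd and at -0.81 ± 0.11 in labelled KOs. The values of these 4 genes in the other pool were picked after they were seen.

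**Figure D4:**
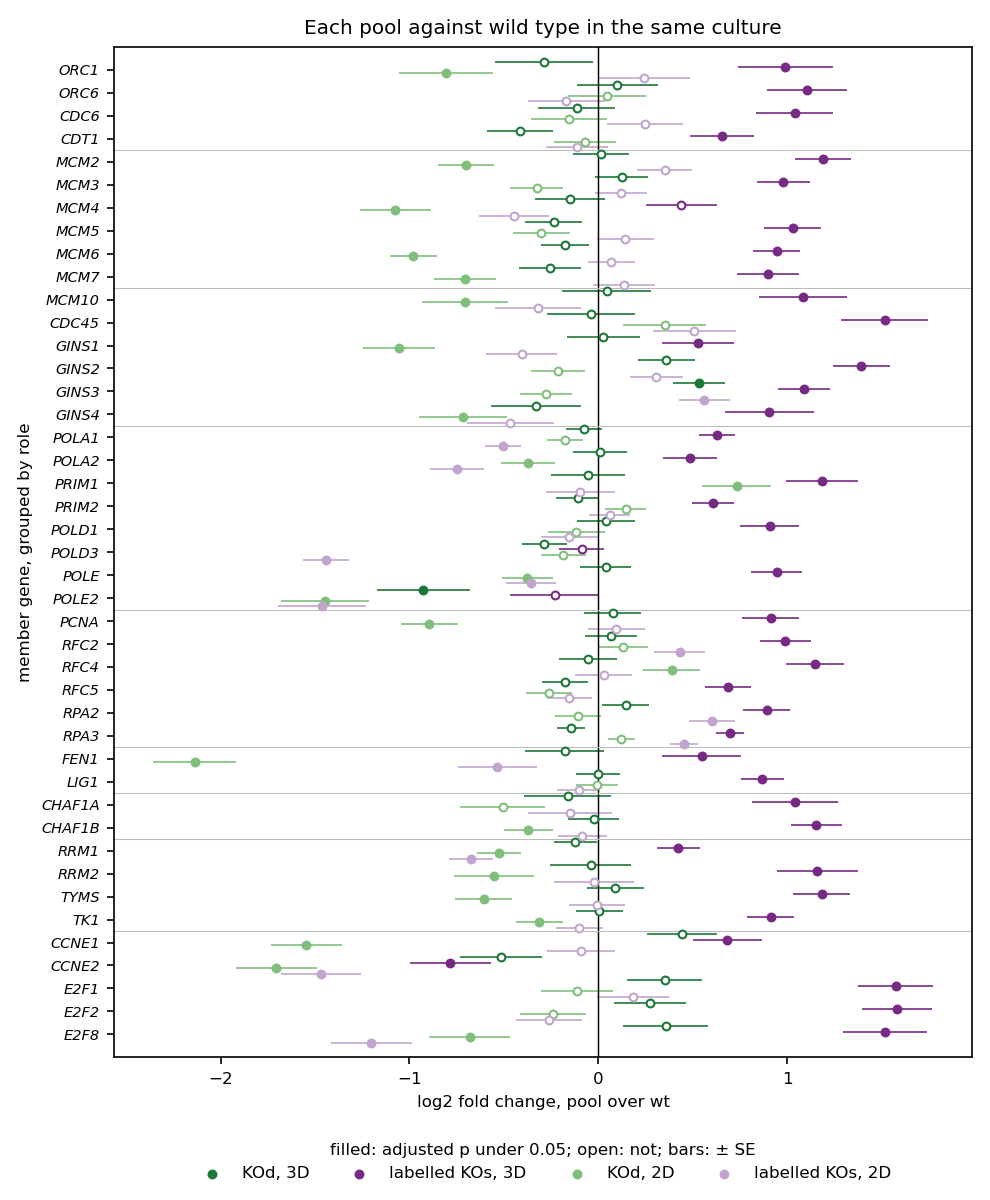
Log2 fold change of each pool over wt in the same culture for each of the 43 genes, with bars of ± SE and filled points for adjusted p under 0.05. Tumorspheres labelled KOs lie right of 0 for nearly all genes, KOd tumorspheres lie around 0, and FEN1, CCNE1, CCNE2 and POLE2 lie far left in adherent KOd cells.

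The pools were also set against each other, which leaves wt out. In tumorspheres 40 of 43 genes were lower in KOd than in labelled KOs and none higher (23.3% and 23.9% of all genes, 47.2% in all), with a median of -0.93 against -0.01. The largest were CDC45 (-1.55 ± 0.23, adjusted p = 2.8e-05), E2F2 (-1.31 ± 0.18, adjusted p = 1.6e-05) and ORC1, the large origin recognition subunit (-1.28 ± 0.25, adjusted p = 5.1e-04), while CCNE1, CCNE2 and POLD3 did not pass. In 2D 17 genes were lower in KOd and 6 higher (30.7% and 28.8% of all genes, 59.6% in all), or 10 and 7 when scaled by library totals alone (39.5% of members, 58.5% of all genes). FEN1 (-1.60 ± 0.22, adjusted p = 5.0e-06), CCNE1 (-1.46 ± 0.19, adjusted p = 3.2e-06) and MCM2 (-1.05 ± 0.15, adjusted p = 9.3e-06) were lower, and all 6 MCM genes passed, though MCM5 and MCM3 were lost under 3 and 2 of 6 omissions of 1 library. POLD3 (1.26 ± 0.12, adjusted p = 8.9e-08) and PRIM1 (0.83 ± 0.18, adjusted p = 7.7e-04) were higher. E2F8 was higher by 0.52 ± 0.22 (adjusted p = 0.046), a call lost when any of 4 libraries was left out (adjusted p up to 0.19).

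**Figure D5:**
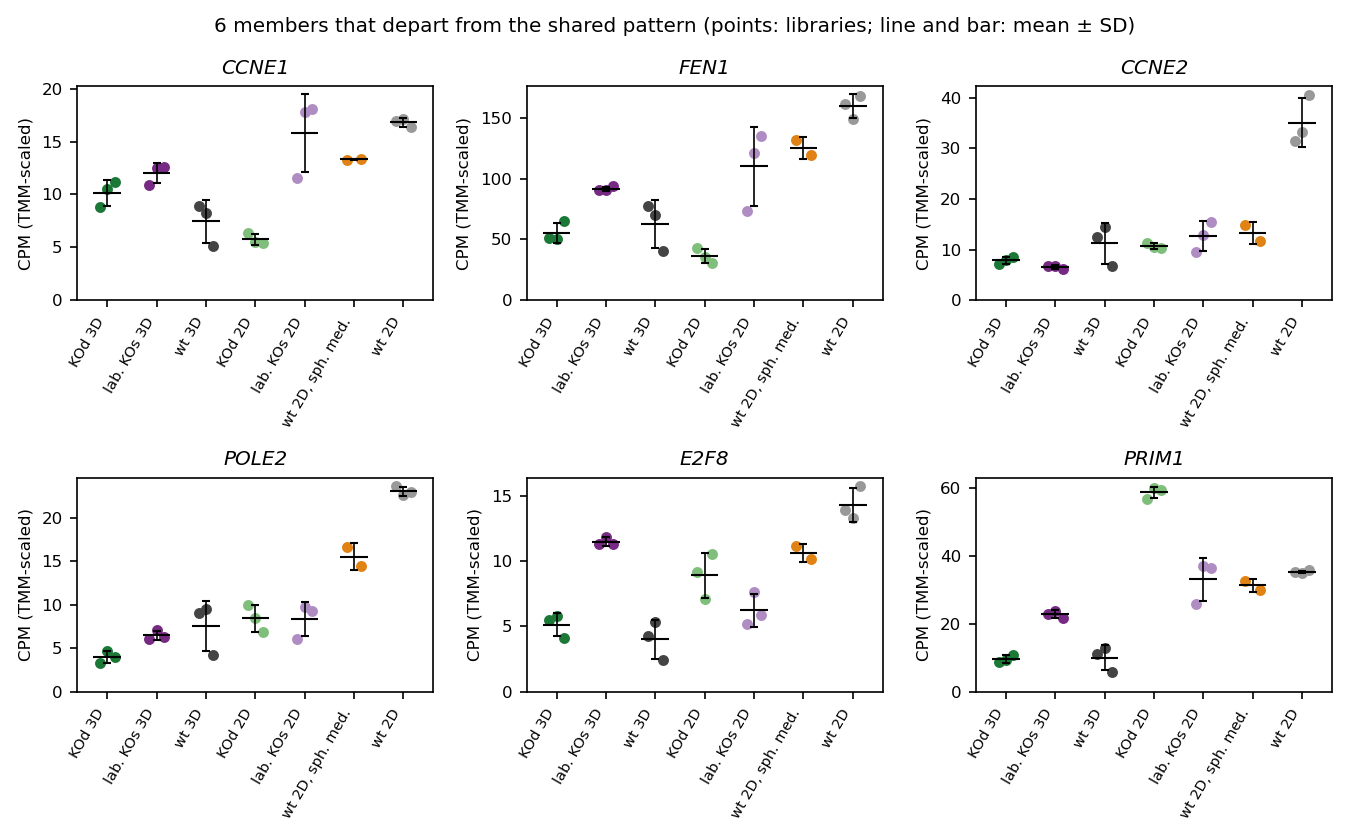
CPM (TMM-scaled) of 6 members in every library of the 7 groups, with each library as a point and the mean ± SD as a line and bar. CCNE1 and FEN1 are lowest in adherent KOd cells, CCNE2 and POLE2 are highest in adherent wt cells, E2F8 is higher in 3D than in 2D in the libraries labelled KOs, and PRIM1 is highest in adherent KOd cells.

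Levels can be compared between genes only per length, and are given here as reads scaled to the authors' gene length and to library size (RPKM). Within the MCM ring the 6 subunits lay within a narrow span: the ratio of the highest to the lowest was 2.57 in KOd tumorspheres, 2.14 in tumorspheres labelled KOs and 2.17 in wt tumorspheres, against 2.59, 2.24 and 2.04 in the adherent cells of KOd, labelled KOs and wt. MCM6 was the lowest in every group but adherent cells labelled KOs, where MCM4 was the lowest, and in wt it was at 16.7 RPKM in tumorspheres against 51.1 RPKM in adherent cells. MCM7 was the highest in wt, at 36.2 ± 9.18 RPKM in tumorspheres against 104.1 ± 4.70 RPKM in adherent cells (SD, n = 3 each). Within the other roles the highest and lowest members in adherent wt cells were CDC6 (35.2 RPKM) and ORC1 (16.6 RPKM) for licensing, GINS2 (34.3 RPKM) and GINS3 (11.0 RPKM) for helicase activation, PRIM1 (24.2 RPKM) and POLE2 (11.8 RPKM) for the polymerases, and FEN1 (69.5 RPKM) and LIG1 (11.3 RPKM) for Okazaki fragments. CHAF1A (23.8 RPKM) and CHAF1B (20.4 RPKM) lay close together, as did RRM2 and RRM1 (96.1 RPKM), while PCNA stood 6.77 times above RFC5 (22.6 RPKM). In wt tumorspheres RRM1 was at 30.6 ± 4.66 RPKM and RRM2 at 27.6 ± 9.95 RPKM, so that the order of both seen in adherent cells did not hold beyond the spread. The most abundant members in adherent wt cells were PCNA (152.9 ± 7.44 RPKM) and RRM2 (145.2 ± 10.1 RPKM); PCNA was at 54.5 ± 13.5 RPKM in wt tumorspheres. E2F8 was among the lowest, at 1.01 ± 0.369 RPKM in wt tumorspheres against 3.60 ± 0.323 RPKM in adherent wt cells, and E2F1 was at 5.01 ± 2.01 RPKM against 16.0 ± 0.678 RPKM.

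The members varied together across libraries, as a description with no test, since the 20 libraries fall into 7 groups and are not independent points. Pearson's r of log2 CPM was positive in 901 of 903 pairs of members, with a median of 0.871 over the 20 libraries. Deviations from the group means had a median r of 0.795. The set's median deviation was -1.36 in wt 3D replicate C against -0.70 and -0.71 in replicates A and B. In labelled KOs 2D replicate A it was 0.24 against 0.80 and 0.74 in replicates B and C. Such shifts of a whole library enter r of every pair, and r without these libraries was not computed. With the mean of the other members, 31 genes had r above 0.9 and 7 had r below 0.8: POLD3 (0.41), CCNE1 (0.55), FEN1 (0.58), CCNE2 (0.60), GINS3 (0.67), POLE2 (0.76) and E2F8 (0.76). Some of these followed each other instead, with r of 0.93 for CCNE1 and FEN1 and 0.89 for CCNE2 and POLE2, pairs picked after their values were seen. MCM2 and MCM7 had r of 0.99. As a share of all reads, the 43 genes took 0.161% to 0.168% in KOd tumorspheres, 0.314% to 0.318% in tumorspheres labelled KOs and 0.105% to 0.181% in wt tumorspheres, against 0.335% to 0.387%, 0.344% to 0.487% and 0.458% to 0.471% in the adherent cells of KOd, labelled KOs and wt. Adherent wt cells in tumorsphere medium had 0.392% and 0.422%.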

How the data were processed

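The deposited table holds raw read counts per gene for 20 libraries, with Entrez identifiers and a gene length column; the lengths are the authors' deposited values, per the file header, and were used only for RPKM. Per the labels' protocols the libraries were stranded TruSeq mRNA libraries, and the submitters' processing notes name STAR and hg38. The counting tool, its strand setting and the annotation are not given in the sources used here. Counts were tested with edgeR 4.0.16 (R 4.3.3): TMM scaling, filterByExpr, which kept 16323 of 27864 genes, and a quasi-likelihood fit with a coefficient for each of 7 groups (13 residual degrees of freedom, biological coefficient of variation 0.143). P-values were adjusted over all genes tested by Benjamini-Hochberg in each of 13 contrasts, and a gene passed at an adjusted p under 0.05. The procedure was tested on simulated data. Groups came from the labels. Same-lettered libraries deviated together in every pair only between KOd 3D and wt 3D (r of 0.210, 0.218 and 0.342), where a fit with the letter as a block was added after seeing the data. Alternatives were other scalings and filters, DESeq2 1.42.0, limma-voom (limma 3.58.1), a stricter threshold, the compared groups alone, a replicate block and the omission of libraries. The 43 members and the other gene lists were chosen with earlier results of these data known. Members named with full statistics were the 3 largest rises and 3 largest falls past the test in each contrast, and genes of other lists were those with the smallest adjusted p in wt culture (up to 4 a list) or in a pool against wt (up to 2). Other members and regulators were named for their role or after their values were seen. Read counts carry no molecular identifiers.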

Additional observations from a re-analysis of the deposited data

Results flagged for a closer look

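The change from adherent culture to tumorspheres differed between the libraries labelled KOs and wt, by the test of that difference, in 39 of the 43 genes (36.8% of all genes passed), all with a smaller fall or a rise in labelled KOs. The difference was 2.72 ± 0.31 for E2F8, 1.84 ± 0.26 for E2F2 and 1.40 ± 0.32 for MCM10 on the log2 scale, the last at 0.91 without the 3 divergent libraries. The same test between KOd and wt passed in 13 genes, or 30.2% of the members, a share near the 29.1% of all genes, with 1.99 ± 0.26 for CCNE1, 1.96 ± 0.30 for FEN1, 1.19 ± 0.30 for CCNE2 and, in the other direction, -0.79 ± 0.27 for PRIM1. Dixon's test for a single outlying value was not applied to these groups of 3 libraries or fewer.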

How the results depend on the processing

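The 356 gene results that passed in the fit of all 7 groups gave 5960 values under the alternatives. Of these 5671 kept their direction and side of the threshold, 289 kept their direction but no longer passed, and 0 reversed. Genes that passed only under an alternative are not in this tally. Counts of members called moved by more than 1.5 times in 5 comparisons, and the cause was not tested. For tumorsphere medium against standard medium in adherent wt cells the count was 5 at an adjusted p under 0.01 (19.8% of all genes). It was 26 with the compared groups alone (60.5% of members, 54.2% of all genes) and 27 without the 3 divergent libraries (62.8% of members, 49.3% of all genes). It was 5 or 6 when a library in standard medium was left out (25.2% to 27.7% of all genes). For adherent labelled KOs against wt it was 27 without those 3 libraries (62.8% of members, 63.7% of all genes). It was 11 to 16 when a single library was left out (46.8% to 56.8% of all genes). The balance turned to more genes higher than lower both at that 27 and at 16, without labelled KOs 2D replicate A. For adherent KOd against wt it was 13 at 0.01 (30.2% of members, 33.2% of all genes) and 15 to 22 when a single library was left out. At a count of 15, 34.9% of members passed against 38% to 38.5% of all genes. For KOd against wt tumorspheres it was 4 with library totals (36.7% of all genes) and 1 with the compared groups alone (30.2% of all genes). It was 20 without those 3 libraries (46.5% of members, 45.3% of all genes). It was 2 to 10 when a single library was left out (27.5% to 33.1% of all genes). For the difference in response between KOd and wt it was 7 at 0.01 (16.3% of members, 17.3% of all genes). With a replicate block, counts were 40 for KOd culture, 9 for the medium, 12 for adherent labelled KOs against wt, 21 for adherent KOd against wt, 22 between the adherent pools and 12 for the KOd difference, and unchanged elsewhere; the letters did not pair most groups, and 2 genes passed between KOd and wt tumorspheres with either form of the block. Each group holds 3 libraries or fewer, which limits what the tests can show.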
